A study of Mus musculus with 9 samples.

Results

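Tumors given an antibody against B7-H3 were compared directly with tumors given an antibody against PD-1, the question being how the RNA of the tumor and its immune infiltrate differs between blockade of one checkpoint and the other. The comparison uses the 6 of 9 libraries of the study that carry these labels, 3 per antibody, and leaves the 3 IgG control libraries out of the test. In both groups, immunocompetent C57BL/6J mice carried a subcutaneous allograft of YUMMER1.7 cells, and treatment began once tumors measured 20 to 50 mm3. YUMMER1.7 is a single mouse melanoma line, derived from a parental line by ultraviolet irradiation, so both groups share its genotype. Total RNA of the whole dissected skin tumor was depleted of ribosomal RNA and sequenced. The labels give no antibody dose or clone, no age and no sampling time. Whether the 3 libraries of a group come from separate mice is not stated either, so a p-value here reflects the spread among these libraries, which may be technical.

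PD-1, encoded by Pdcd1, is an inhibitory receptor of activated T cells, and its ligands PD-L1 (Cd274) and PD-L2 (Pdcd1lg2) restrain those cells. B7-H3, encoded by Cd276, is a surface protein of the same ligand family that tumor and stromal cells carry and whose receptor is not settled. Activated CD8 T cells and NK cells kill with perforin and granzymes and release interferon gamma, which in turn induces PD-L1, the MHC class I pathway and families of defence GTPases in the cells around them. In bulk tumor RNA, fewer cells of a type and less RNA per cell cannot be told apart.

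The 6 libraries differed in measures that belong to no tumor gene, and these are given before the results because several results move with them. Estimated reads outside the major satellite genes came to 7239044, 13602962 and 14408350 in anti-B7-H3 replicates 1 to 3 and to 5326276, 8317751 and 9583684 in anti-PD1 replicates 1 to 3. Their satellite share of gene reads was 28.2, 5.24 and 6.41% against 38.2, 19.8 and 14.6%. The summed genes for smell and pheromone receptors, which are silent in most tissues and are called receptor genes below, had 199.7, 41.3 and 40.6 CPM (counts per 1e6 reads) against 283, 79.3 and 113 CPM. Thus anti-B7-H3 replicate 1 lay nearer to the anti-PD1 libraries than to the other anti-B7-H3 libraries in depth, satellite share and receptor signal. Skeletal muscle genes took 0.264, 0.0202 and 1.14% of the same reads against 0.0847, 0.585 and 0.400%, highest in replicate 3 of the anti-B7-H3 and replicate 2 of the anti-PD1 group. Markers of fat and skin were near 0, with at most 8 reads of Adipoq and 5 of Krt5 in a library. Of the markers of pigmented melanoma, Mitf had 102 to 170 reads, while Pmel had at most 7, Tyr and Dct at most 4 each, and Sox10 at most 13. All later levels are TMM-scaled CPM outside the satellite genes, given for replicates 1, 2 and 3 in that order.

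**Figure D1:**
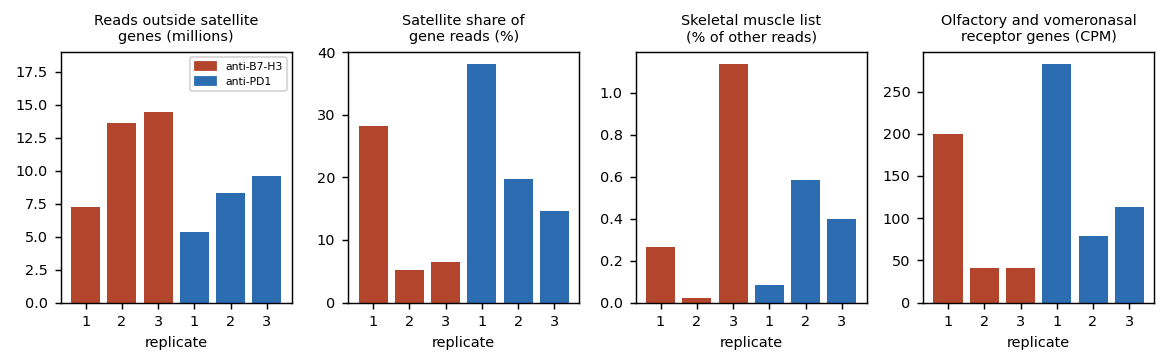
Depth, major satellite share, skeletal muscle share and receptor gene signal of each library, 1 bar per library, all axes from 0. Anti-B7-H3 replicate 1 is closer to the anti-PD1 libraries than to its own group in depth, satellite share and receptor signal, and anti-B7-H3 replicate 3 has the highest muscle share at 1.14%.

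No single gene differed between the antibodies past the threshold. Of 12593 genes tested with edgeR's quasi-likelihood test, 0 were higher and 0 were lower at a Benjamini-Hochberg adjusted p of at most 0.05 (0% in both directions), and the smallest adjusted p was 0.457. At an unadjusted p under 0.05, 639 genes were higher with anti-B7-H3 (5.07% of genes tested) and 470 were lower (3.73%). These counts became 299 and 254 when anti-PD1 replicate 1 was left out, and 359 and 226 when anti-B7-H3 replicate 2 was. The levels of 972 genes (7.72%) were higher in every anti-B7-H3 library than in every anti-PD1 library, and those of 1016 (8.07%) were lower in every one. DESeq2, fitted to 20575 genes without edgeR's filter on low counts, called 8 genes higher and 7 lower. On the same 12593 genes as edgeR, limma-voom called 0 and 0, with 562 and 488 at an unadjusted p under 0.05. With quality weights limma-voom also called 0 and 0, and 1031 and 906 were at an unadjusted p under 0.05. The median log2 difference of all tested genes was 0.01, its quartiles were -0.20 and 0.25, and 51.3% of genes had a difference above 0. The biological coefficient of variation was 27.3%. Pearson correlations of log2 levels across genes ran from 0.937 to 0.975 between libraries of 1 group and from 0.917 to 0.978 between groups, and the ranges overlapped; genes are not independent replicates. The differences below are therefore measured values, none of which passed adjustment over all genes in edgeR.

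The 10 genes with the smallest p in each direction are described first. They were picked from these same libraries, so their separation by level largely follows from that choice. Of all tested genes, 7.72% were higher and 8.07% lower without overlap. Atg9b, a relative of the autophagy lipid scramblase Atg9a, was at 16.7, 26.0 and 19.9 CPM with anti-B7-H3 and at 5.11, 3.21 and 5.39 CPM with anti-PD1. Every anti-B7-H3 library was above every anti-PD1 library, with a log2 difference of 2.20 ± 0.28 (SE; edgeR adjusted p = 0.457). DESeq2 and the edgeR fit without a filter on low counts called it, and its adjusted p ran from 1.97e-06 to 0.894 over 22 alternatives. Atg9b lies on chromosome 5 (24384181 to 24392143, minus strand, GRCm38), and its exons overlap those of the nitric oxide synthase gene Nos3 on the opposite strand. The sources used here do not say how the counting used strand, so reads from a stretch shared by the pair cannot be told apart. Whether that stretch lies in the counted coding sequence was not tested.

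Igsf9b, an adhesion molecule of inhibitory synapses, was at 12.3, 9.27 and 7.15 CPM with anti-B7-H3 and at 2.16, 1.72 and 2.11 CPM with anti-PD1, a log2 difference of 2.25 ± 0.31. Nefm, the medium neurofilament chain, was at 38.9, 36.9 and 40.7 CPM against 14.7, 11.8 and 20.1 CPM, a difference of 1.32 ± 0.21. Crmp1, a regulator of axon growth, differed by 1.84 ± 0.36, and Slc6a17, a transporter of synaptic vesicles, by 2.02 ± 0.40. None of these overlapped between the groups. Nefm shares exon sequence with Nefl on the opposite strand.

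Col5a3, a chain of type V collagen, was at 236, 292 and 216 CPM with anti-B7-H3 and at 75.3, 67.4 and 132 CPM with anti-PD1, with a log2 difference of 1.44 ± 0.28. Its lowest anti-B7-H3 library was above its highest anti-PD1 library. The same separation was seen for Klhl21, an adaptor of a ubiquitin ligase that acts in cell division, at 1.32 ± 0.26, the sodium/proton exchanger Slc9a2 at 1.18 ± 0.26, the Polycomb-related gene Scml4 at 2.03 ± 0.44 and the metalloprotease Adam15 at 0.73 ± 0.16. These 4 and the genes named after Atg9b had an edgeR adjusted p of 0.457 or 0.552. Scml4 was at 2.63, 3.86 and 4.74 CPM with anti-B7-H3 and at 1.18, 0.57 and 1.06 CPM with anti-PD1. It passed the filter on low counts mainly through the anti-B7-H3 libraries, so its direction is partly set by the filter.

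Among lower genes, Arl5b, a small GTPase of the trans-Golgi, was at 0.69, 1.33 and 0.55 CPM with anti-B7-H3 and at 4.91, 7.22 and 7.18 CPM with anti-PD1. That is a log2 difference of -2.88 ± 0.43 (edgeR adjusted p = 0.457), the largest in size among the 20 genes. Arl5b passed the filter on low counts mainly through the anti-PD1 libraries, so its direction is partly set by the filter. Ptn, the secreted growth factor pleiotrophin, was at 78.3, 53.4 and 53.3 CPM against 195, 197 and 137 CPM, a difference of -1.52 ± 0.23. The ribosomal protein gene Rpl10 was at 138, 217 and 178 CPM with anti-B7-H3 and at 547, 701 and 397 CPM with anti-PD1. Its difference was -1.62 ± 0.27, and because Rpl10 and the histone gene Hist4h4 (-1.69 ± 0.29) have near-identical copies, how reads divide among the copies is uncertain. The others were the protease Prss23 (-0.90 ± 0.17), the kinetochore subunit Cenpk (-1.09 ± 0.21), the zinc finger gene Zfp808 (-0.83 ± 0.18), the secreted leucine-rich protein Lrrc17 (-1.23 ± 0.27), the caveolar coat protein Cav1 (-0.68 ± 0.16) and the cytokinesis protein Cep55 (-0.62 ± 0.15). Each of the 10 lower genes had its highest anti-B7-H3 library below its lowest anti-PD1 library.

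**Figure D2:**
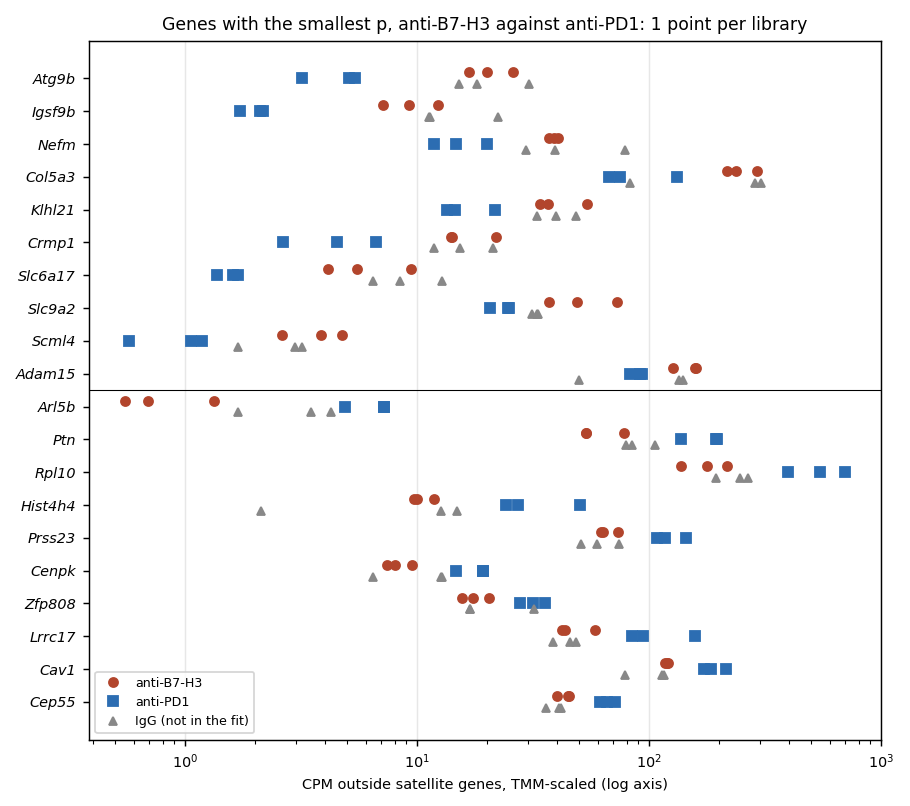
Levels of the 10 genes with the smallest p in each direction, 1 point per library, on a log axis of TMM-scaled CPM. IgG libraries are shown for reference although they are not in the fit, and their levels come from the scaling of all 9 libraries. The 20 genes were picked by p from these same libraries, which largely sets that their anti-B7-H3 and anti-PD1 points do not overlap. Atg9b, for example, is at 16.7 to 26.0 against 3.21 to 5.39 CPM.

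Placed on the same scale, the mean IgG level was nearer to the anti-B7-H3 mean than to the anti-PD1 mean for 8 of the 10 higher and 9 of the 10 lower genes (log2 of CPM with 0.5 added). Among all 12593 tested genes the IgG mean was nearer to anti-B7-H3 for 7343 (58.3%). The share was 81.7% of the 470 genes lower at an unadjusted p under 0.05 and 52.9% of the 639 higher ones. The IgG libraries hold 87.0 to 92.0% satellite reads and far fewer other reads. The part of this and of the scaling offset in their placement was not tested.

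The antibody targets and their partners came next. Cd276, the target of anti-B7-H3, was at 21.0, 24.2 and 15.7 CPM with that antibody and at 14.4, 12.3 and 18.9 CPM with anti-PD1. Groups overlapped, with a log2 difference of 0.42 ± 0.24 (edgeR adjusted p = 0.620). Pdcd1, the target of anti-PD1, was at 2.77, 7.71 and 9.07 CPM with anti-B7-H3 and at 2.16, 2.64 and 3.06 CPM with anti-PD1, a difference of 1.31 ± 0.45 (edgeR adjusted p = 0.552). Only anti-B7-H3 replicate 1 lay within the anti-PD1 range. Cd276 and Cd274 overlap the exons of Gm10657 and AC119228.1 on the opposite strand. An antibody acts on the protein, so these RNA levels do not check the treatment labels.

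Cd274, which encodes PD-L1, had a wider spread. It was at 10.7, 43.2 and 61.8 CPM with anti-B7-H3 and at 12, 6.19 and 15.2 CPM with anti-PD1. Anti-B7-H3 replicates 2 and 3 were above every anti-PD1 library and replicate 1 was among them, with a log2 difference of 1.80 ± 0.62 (edgeR adjusted p = 0.552; 0.92 to 2.24 over the 22 alternatives). Pdcd1lg2, for PD-L2, was at 1.25, 2.45 and 4.81 CPM against 0.98, 1.03 and 1.27 CPM, a difference of 1.38 ± 0.54. Pdcd1lg2 passed the filter on low counts mainly through the anti-B7-H3 libraries, so its direction is partly set by the filter. Of 17 B7 family and checkpoint ligand genes listed, 13 were tested and 13 were above 0, as were 51.3% of all tested genes, with a median of 0.49 beside 0.01 for all genes. Cd274 and Pdcd1lg2 were the 2 members higher at an unadjusted p under 0.05, where 5.07% of all tested genes were. The poliovirus receptor relative Nectin2, a ligand of Tigit and Cd226, was at 0.41 ± 0.18 without overlap. Over the alternatives the list's median ran from 0.35 to 0.54.

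Inhibitory receptor genes of T cells had log2 differences above 0 in all 10 tested members of 13 listed, with a median of 0.76. With the receptor gene signal as a covariate the median was 0.45, with 8 of 10 above 0. Without anti-PD1 replicate 3 it was 1.06. Lag3, a receptor that binds MHC class II, was at 10.5, 11.6 and 10.7 CPM with anti-B7-H3 and at 3.93, 3.67 and 7.50 CPM with anti-PD1. Here anti-B7-H3 replicate 1 sat with its group and the groups did not overlap, for a difference of 1.10 ± 0.31 (edgeR adjusted p = 0.552). Havcr2, which encodes TIM-3, was at 4.98, 8.97 and 10.6 CPM against 2.56, 4.47 and 4.23 CPM, a difference of 1.11 ± 0.36. Tigit differed by 0.92 ± 0.46, at 1.94 to 2.82 CPM against 0.79 to 1.90 CPM. It passed the filter on low counts mainly through the anti-B7-H3 libraries, so its direction is partly set by the filter. Lag3, Havcr2 and Tigit were the 3 members without overlap, where 7.72% of all tested genes were higher. At an unadjusted p under 0.05 the 3 were Lag3, Havcr2 and Pdcd1, where 5.07% of all tested genes were higher.

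The genes of the killing machinery, Prf1 and Gzmb, had the largest differences among tested members of the T cell, CD8, NK and inhibitory receptor lists. Gzmb, granzyme B, was at 4.84, 11.9 and 16.2 CPM with anti-B7-H3 and at 2.75, 3.32 and 3.91 CPM with anti-PD1. Prf1, the pore-forming perforin, was at 3.46, 11.1 and 15.3 CPM against 1.77, 2.52 and 3.38 CPM. Neither gene overlapped between groups, but for both the lowest anti-B7-H3 library was replicate 1, for Prf1 just above the highest anti-PD1 library. Their log2 differences were 1.72 ± 0.43 and 1.94 ± 0.53 (edgeR adjusted p = 0.552 for both), and over the alternatives they ran from 1.08 to 2.06 and from 1.09 to 2.33. The CD8 coreceptor Cd8a was at 4.43, 11.9 and 11.4 CPM against 3.93, 2.75 and 6.76 CPM, overlapping, with a difference of 1.04 ± 0.46. Nkg7, a protein of cytotoxic granules, was at 1.24 ± 0.48. Of 17 CD8 and cytotoxic genes listed, 15 were tested and 14 were above 0 with a median of 0.67. Of these, 3 were higher at an unadjusted p under 0.05, where 5.07% of all tested genes were, and 2 without overlap, where 7.72% were. Adding the receptor gene signal as a covariate gave the lowest median of the alternatives, 0.16, and leaving out anti-B7-H3 replicate 1 the highest, 0.89. Without anti-B7-H3 replicate 3 the median was 0.31, and without anti-PD1 replicate 1 it was 0.37.

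T cell identity genes had a median of 0.53 over 19 tested members, with 16 above 0. Cd3g, a chain of the T cell receptor complex, was at 5.12, 10.3 and 9.90 CPM against 4.33, 4.58 and 5.07 CPM, a difference of 0.86 ± 0.32. Trbc2, a constant segment of the receptor's beta chain, was at 0.79 ± 0.33, and the receptor-proximal kinase Zap70 at 0.77 ± 0.36, both without overlap. Cd3e was at 3.60, 5.41 and 4.74 CPM against 1.77, 0.92 and 5.07 CPM and overlapped (0.80 ± 0.57). Cd4, the coreceptor of helper T cells, pointed the other way at -0.45 ± 0.31, with 5.40, 3.26 and 4.05 CPM against 4.91, 7.11 and 5.18 CPM. Foxp3, which defines regulatory T cells, was at most 3.32 CPM in a library and differed by 0.16 ± 0.83. A receptor signal covariate brought the list's median to 0.08, and leaving out anti-PD1 replicate 1 brought it to 0.33.

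**Figure D3:**
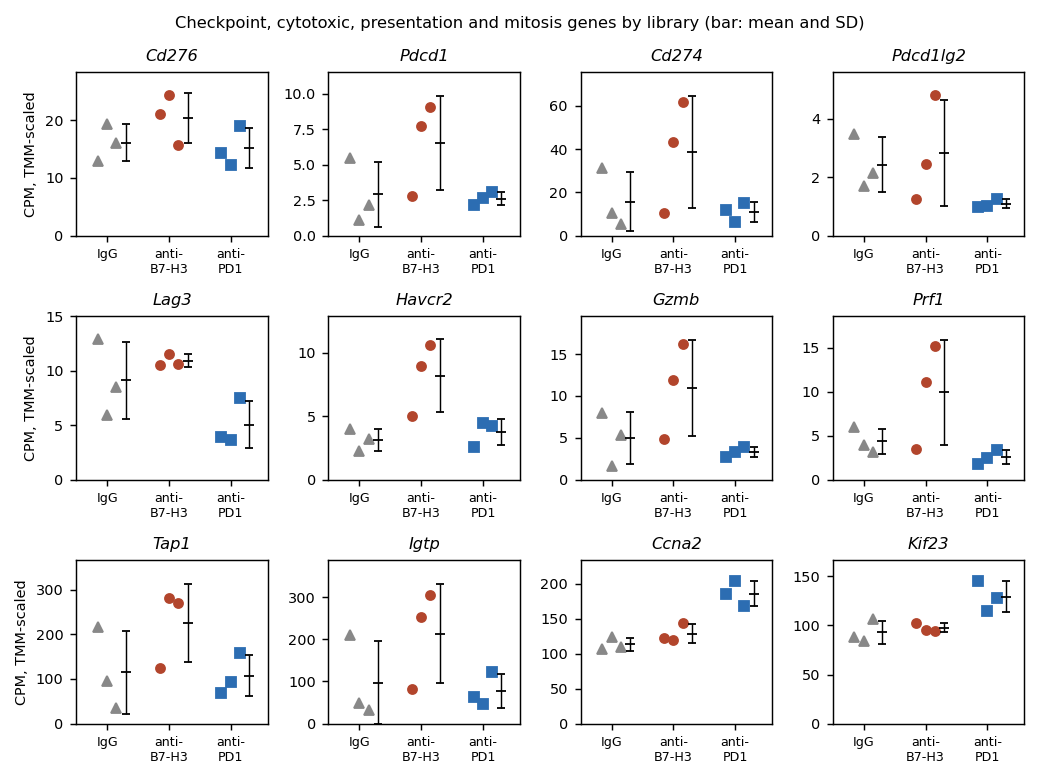
TMM-scaled CPM of checkpoint, cytotoxic, antigen presentation and mitosis genes by library, with 1 point per library and the mean and SD of 3 libraries at the right of each group; each axis starts at 0 and IgG is shown for reference. Anti-B7-H3 replicate 1, the left point of its group, lies near the anti-PD1 points for Cd274 (10.7 CPM) and Igtp (82.6 CPM) but not for Lag3 (10.5 CPM) or Ccna2 (122 CPM).

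Genes of the interferon gamma response had the highest median of the 45 lists. All 19 tested members of 21 listed were above 0, with a median log2 difference of 1.15. Of these, 9 were higher at an unadjusted p under 0.05, where 5.07% of all tested genes were. The mean level of the list, relative to the 6 libraries, was -0.57, 1.03 and 1.16 in the anti-B7-H3 libraries against -0.62, -1.01 and 0.01 in the anti-PD1 libraries. Anti-B7-H3 replicate 1 was thus level with anti-PD1 replicate 1, and 18 of the 19 genes overlapped between the groups. The gene without overlap, 1 of 19 where 7.72% of all tested genes were higher, was Socs1, the feedback inhibitor of the interferon receptor kinases, at 9.41, 17.1 and 21.4 CPM against 4.33, 8.14 and 7.61 CPM, a difference of 1.24 ± 0.36 (edgeR adjusted p = 0.552). Igtp, an immunity-related GTPase, was at 82.6, 253 and 305 CPM with anti-B7-H3 and at 62.7, 46.9 and 123 CPM with anti-PD1. Its groups overlapped through anti-B7-H3 replicate 1, with a difference of 1.46 ± 0.53. The guanylate-binding protein genes Gbp8 and Gbp6 were at 1.51 ± 0.49 and 1.60 ± 0.56, and Cxcl10, a chemokine that attracts CXCR3-bearing T cells, at 1.34 ± 0.52. Gbp8 shares exon sequence with Gbp4 and Gbp9, Igtp with Irgm2, and Cxcl10 with Art3 on the opposite strand, so how reads divide between them is uncertain. The median without anti-B7-H3 replicate 1 was 1.50, adding the receptor signal as a covariate brought it to 0.54, and leaving out both of the muscle-rich libraries brought it to 0.61.

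These members share promoter letters that the choice of the list did not use. The gamma-activated sequence (GAS) motif, TTCNNNGAA, and the core of the interferon-stimulated response element, GAAA repeated after any 2 bases, were searched on both strands in RefSeq promoter windows (250 bases before to 50 after each start, GRCm38.p6). The motifs were searched one by one and can overlap. GAS letters were in 7 of 15 windows of the list (46.7%; 13 genes have a window) against 8.30% of all 32851 windows, and the response element core in 11 of 15 (73.3%) against 3.44%. Related family members carry near-identical stretches, so the windows are not independent. In Igtp, Irgm2 and Tgtp1 both motifs lie 2 bases apart, and Irf1, a transcription factor of the response, has GAS letters alone. The 30-base stretches are printed below 5′ to 3′ along the gene, with motif letters in capitals.
Igtp: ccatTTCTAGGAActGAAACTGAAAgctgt
Irgm2: ccatTTCCAGGAActGAAACTGAAAgctgt
Tgtp1: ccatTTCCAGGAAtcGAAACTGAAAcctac
Irf1: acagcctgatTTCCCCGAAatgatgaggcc
They lie at chr11:58199507-58199536, plus strand, for Igtp, chr11:58214898-58214927, plus strand, for Irgm2, chr11:48992309-48992338, minus strand, for Tgtp1 and chr11:53769914-53769943, plus strand, for Irf1. A match of letters is a description and shows no binding in these tumors.

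MHC class I presentation genes followed a similar order of libraries. Of 21 genes listed and tested, 18 were above 0 with a median of 0.79, and 11 were higher at an unadjusted p under 0.05, where 5.07% of all tested genes were. Yet 0 were higher in every anti-B7-H3 library than in every anti-PD1 library, where 7.72% of all tested genes were, and 1, the chaperone Canx (-0.21 ± 0.18; named after its values were seen), was lower in every one, where 8.07% were. Tap1, a subunit of the transporter that loads peptides onto class I, was at 124, 280 and 271 CPM with anti-B7-H3 and at 69.6, 93.3 and 158 CPM with anti-PD1. Anti-B7-H3 replicate 1 lay below the highest anti-PD1 library, as it did for its partner Tap2 (0.81 ± 0.29, against 1.07 ± 0.39 for Tap1). Tap1 shares exon sequence with Psmb9 on the opposite strand. The class Ib genes H2-T23 and H2-Q6 were at 0.89 ± 0.33 and 1.27 ± 0.47, and reads of such near-identical genes divide with uncertainty. Levels of the list were -0.20, 0.65 and 0.50 in the anti-B7-H3 libraries against -0.65, -0.40 and 0.10. Medians over the alternatives ran from 0.40, with the receptor signal as a covariate, to 1.09, without anti-PD1 replicate 3. Type I interferon response genes were above 0 in 27 of 28 with a median of 0.56. That median was 0.11 without anti-B7-H3 replicate 2, 0.29 without anti-PD1 replicate 2 and 0.25 with the receptor covariate. At an unadjusted p under 0.05, 2 of the 28 were higher, where 5.07% of all tested genes were, and 0 were higher without overlap, where 7.72% were. In this list Oasl1, a 2′-5′ oligoadenylate synthetase relative, was at 0.89 ± 0.38 and the ubiquitin-like Isg15 at 0.75 ± 0.36.

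Most tested MHC class II genes also had differences above 0, while the dendritic cell list was mixed. Of all tested genes 51.3% were above 0. Ciita, the transactivator that controls class II genes, was at 35.3, 55.3 and 52.4 CPM with anti-B7-H3 and at 18.3, 26.1 and 35.0 CPM with anti-PD1. Its groups did not overlap, with a difference of 0.84 ± 0.27 (edgeR adjusted p = 0.552), though anti-B7-H3 replicate 1 at 35.3 CPM was only just above anti-PD1 replicate 3 at 35.0 CPM, and its exons overlap those of Dexi on the opposite strand. The invariant chain gene Cd74 was at 0.65 ± 0.31, the class II chain gene H2-Eb1 at 0.80 ± 0.33 and the class II modulator gene H2-Ob at 1.35 ± 0.46. H2-Ob passed the filter on low counts only through the anti-B7-H3 libraries, so it can only be high there. Of 11 tested class II genes, 10 were above 0 with a median of 0.64, which was 0.37 without anti-B7-H3 replicate 3, 0.38 without anti-PD1 replicate 1 and 0.34 with the receptor covariate. Irf8, a transcription factor of dendritic cells and macrophages, was at 36.8, 50.7 and 46.7 CPM against 20.6, 30.6 and 27.7 CPM, a difference of 0.76 ± 0.20. Itgax, which encodes CD11c, was at 39.6, 114 and 107 CPM against 21.4, 34.8 and 34.9 CPM, a difference of 1.51 ± 0.40, also without overlap. In contrast Flt3, a growth factor receptor of dendritic cell precursors, was at 0.09 ± 0.44 and Xcr1, of cross-presenting dendritic cells, at 0.93 ± 0.54, both overlapping. Cd83, of the same list, pointed the other way at -0.77 ± 0.39 and overlapped. The 14 tested dendritic cell genes had a median of 0.27, with 9 above 0. That median was 0.57 without anti-PD1 replicate 2 and 0.13 with the receptor covariate.

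Levels of most macrophage genes overlapped between the antibodies. Adgre1, which encodes F4/80, was at 100, 119 and 220 CPM with anti-B7-H3 and at 84.9, 229 and 82.5 CPM with anti-PD1, a difference of 0.15 ± 0.47. Csf1r, the macrophage growth factor receptor, was at 282, 225 and 356 CPM against 221, 458 and 201 CPM (-0.03 ± 0.34). Both were highest in anti-B7-H3 replicate 3 and in replicate 2 of the anti-PD1 group, the libraries with the highest skeletal muscle share. Of 24 macrophage genes, 15 were above 0 with a median of 0.15, which became 0.69 without anti-PD1 replicate 2 and -0.15 when the receptor signal was a covariate. It also fell below 0 without anti-B7-H3 replicate 3 (-0.12), anti-PD1 replicate 1 (-0.07) or anti-PD1 replicate 3 (-0.10), and no direction is given for it. Among Fc receptor and phagocytosis genes, 20 of 23 were above 0 with a median of 0.29. With the receptor covariate that became 12 of 23 and 0.01. Leaving out 1 library gave medians from 0.11 (15 of 23 above 0), without anti-B7-H3 replicate 3, to 0.67, without anti-PD1 replicate 2; without anti-PD1 replicates 1 or 3 they were 0.14 and 0.17. Syk, a kinase downstream of Fc receptors, was at 48.7, 45.2 and 48.2 CPM against 34.2, 40.0 and 34.5 CPM, a difference of 0.38 ± 0.15 without overlap. Itgb2, the common integrin chain of leukocytes, was at 0.88 ± 0.36 and overlapped. Cd47, the signal that restrains phagocytes, and its receptor gene Sirpa were at 0.02 ± 0.17 and 0.03 ± 0.26, and the sign of both differed between alternatives. The glutaminyl cyclase Qpct, a relative of the enzyme that matures Cd47, was at 1.38 ± 0.48.

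Genes of other blood cell types ranged widely in level. Of neutrophil genes, S100a8 had at most 11 reads in a library and S100a9 at most 25. Csf3r, the receptor of the neutrophil growth factor G-CSF, was at 10.2, 17.6 and 16.8 CPM against 10.2, 12.1 and 10.5 CPM. It overlapped, with a difference of 0.45 ± 0.25. Mmp9, a gelatinase of the same list, was at 126, 181 and 164 CPM against 99.7, 184 and 113 CPM and overlapped (0.24 ± 0.26). The B cell receptor gene Cd79a was not tested, at no more than 0.80 CPM in any library. Ighm, the constant segment of immunoglobulin M, was at 40.1 to 72.0 CPM against 14.9 to 98.1 CPM (0.20 ± 0.68), and Igkc, that of the kappa light chain, was at 10.5 to 32.6 CPM against 7.47 to 63.8 CPM (-0.61 ± 0.80). Both immunoglobulin genes were highest in anti-PD1 replicate 2 and overlapped. Ncr1, which defines NK cells, was at no more than 1.38 CPM and differed by -0.16 ± 0.57. Of 12 NK cell genes listed, 5 were tested. Of these, 3 were above 0 and 2 below, where 51.3% of all tested genes were above 0. Their median was 0.46, and -0.04 with the receptor covariate. Hdc, the histamine-forming enzyme of mast cells and basophils, was at 2.49, 2.08 and 3.23 CPM with anti-B7-H3 and at 0.39, 0.80 and 0.63 CPM with anti-PD1. It did not overlap, at 2.03 ± 0.45, while 6 of the 7 tested genes of its list were below 0. Hdc passed the filter on low counts only through the anti-B7-H3 libraries, so it can only be high there. Chemokine and cytokine genes were mixed, with 12 of 18 above 0 and a median of 0.38, which was 0.05 without anti-B7-H3 replicate 3 and -0.27 with the receptor covariate. Ccl4, a chemokine of activated T cells and macrophages, was at 1.71 ± 0.68, and Cxcl12, a stromal chemokine, at -0.97 ± 0.35, with 6.78, 4.67 and 7.63 CPM against 8.65, 18.8 and 9.72 CPM.

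**Figure D4:**
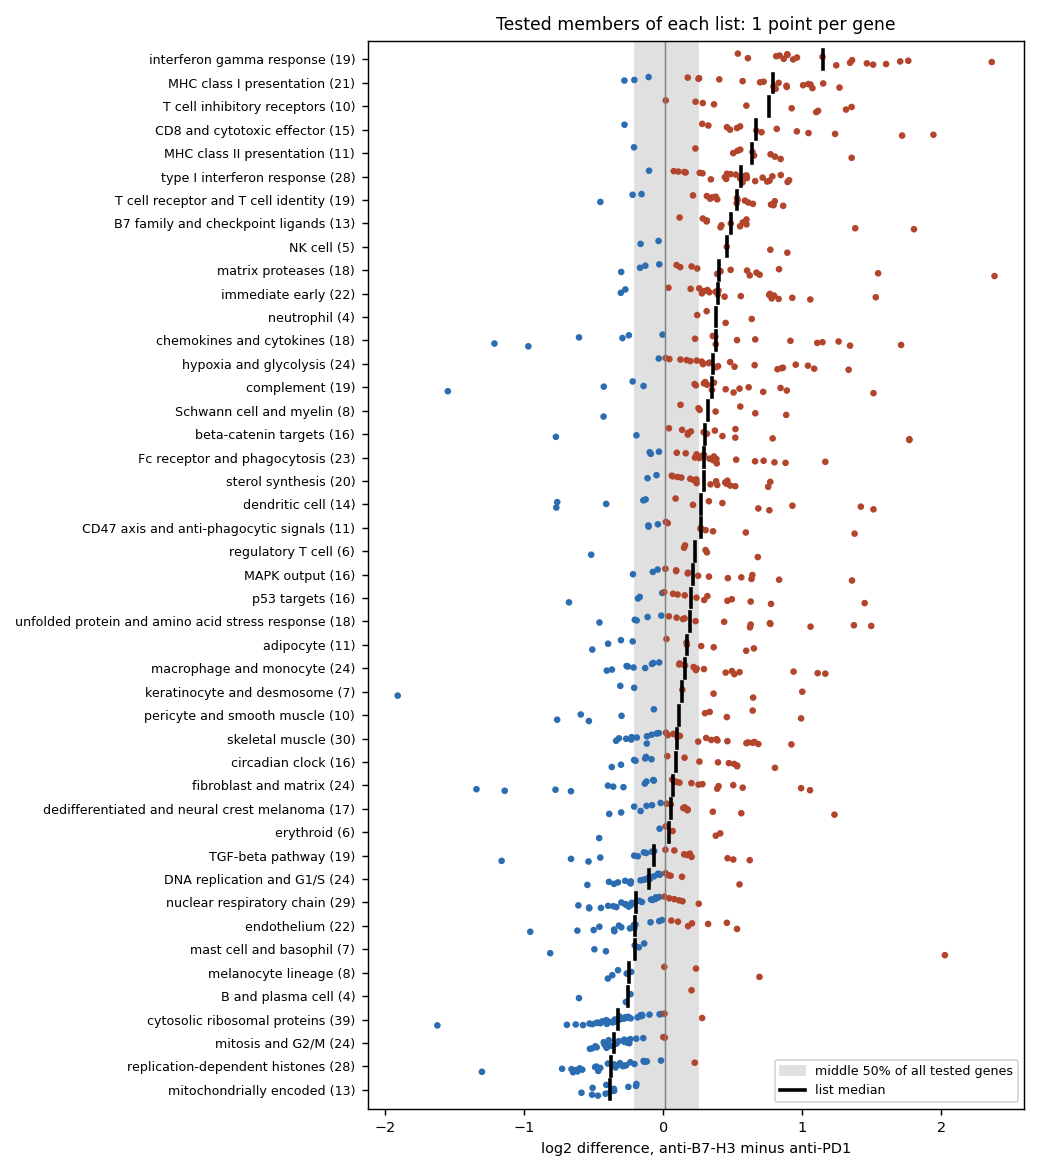
Log2 difference (anti-B7-H3 minus anti-PD1) of each tested member of the 45 gene lists, 1 point per gene, with the number of tested members in brackets, list medians as black bars and the middle 50% of all tested genes in grey. Medians run from 1.15 for interferon gamma response genes to -0.38 for mitochondrially encoded genes.

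Mitosis genes pointed the other way. Of 24 genes, 2 were above 0, the median log2 difference was -0.36, and 13 were lower in every anti-B7-H3 library than in every anti-PD1 library, where 8.07% of all tested genes were. At an unadjusted p under 0.05, 8 were lower, where 3.73% of all tested genes were, and 0 higher. Ccna2, cyclin A, was at 122, 119 and 144 CPM with anti-B7-H3 and at 185, 204 and 168 CPM with anti-PD1. Its difference was -0.53 ± 0.16 (edgeR adjusted p = 0.552), and its exons overlap those of Exosc9 on the opposite strand. Ccnb2, cyclin B2, was at 59.0, 61.4 and 68.3 CPM against 80.4, 109 and 79.0 CPM, a difference of -0.51 ± 0.18. Kif23, a kinesin of the cytokinetic midzone, was at 103, 95.9 and 94.1 CPM against 146, 115 and 128 CPM (-0.41 ± 0.15), and the spindle checkpoint kinase Bub1 was at -0.48 ± 0.18. In each of these 4 genes the groups did not overlap. The list's level was -0.13, -0.23 and -0.11 in the anti-B7-H3 libraries against 0.18, 0.14 and 0.15 in the anti-PD1 libraries, so anti-B7-H3 replicate 1 sat with its group here. The median stayed between -0.39 and -0.32 over the 22 alternatives. Members of a list move together, so the 13 genes are not 13 independent observations.

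Mitotic promoters are known for CCAAT boxes and for the cell cycle homology region, TTTGAA, both searched on both strands in the same RefSeq windows. CCAAT was in 19 of 20 windows of the list (95%; 19 genes have a window) against 37.4% of all windows, and TTTGAA in 16 of 20 (80.0%) against 17.9%. These letters describe the members and say nothing of the treatment. The stretches of Kif23 and Ccnb2, which are among the members with the smallest p, are shown 5′ to 3′ along the gene, with TTTGAA and, in Kif23, a CCAAT box read on the other strand in capitals.
Kif23: gccgctgATTGGcctgTTTGAAatgcgccg
Ccnb2: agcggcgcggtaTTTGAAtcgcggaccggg
They lie at chr9:61946784-61946813 and chr9:70421533-70421562, both on the minus strand of GRCm38.p6.

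Other growth-related lists had medians below 0 with less separation. DNA replication and G1/S genes were above 0 in 5 of 24, with a median of -0.10, which ran from -0.24, without anti-B7-H3 replicate 3, to -0.05, without anti-PD1 replicate 2. The replication licensing factor Cdt1 was at 0.55 ± 0.20 without overlap. Replication-dependent histone genes were above 0 in 1 of 28 with a median of -0.38, and Hist1h4b was at -0.65 ± 0.16 and Hist2h4 at -1.30 ± 0.35. Cytosolic ribosomal protein genes were above 0 in 2 of 39 with a median of -0.33, with Rps16 at -0.58 ± 0.22. Both lists were highest in anti-PD1 replicate 2, at 0.71 and 0.55, and without it their medians were -0.07 and -0.09. All 13 mitochondrially encoded genes were below 0 (median -0.38) with 0 at an unadjusted p under 0.05. Their median was -0.20 without anti-PD1 replicate 1, -0.23 without anti-B7-H3 replicate 3 and -0.59 without anti-B7-H3 replicate 2. Nuclear genes of the respiratory chain were above 0 in 6 of 29 with a median of -0.19, which turned to 0.04 without anti-PD1 replicate 2.

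Immediate early genes separated the groups as a list. Their level was -0.02, 0.29 and 0.43 in the anti-B7-H3 libraries against -0.23, -0.30 and -0.17 in the anti-PD1 libraries. Of 22 tested members of 23 listed, 20 were above 0 with a median of 0.39. Of these, 9 were higher without overlap, where 7.72% of all tested genes were, and 6 were higher at an unadjusted p under 0.05, where 5.07% were. Klf4, a zinc finger transcription factor, was at 53.1, 86.4 and 109 CPM against 43.1, 31.9 and 44.9 CPM, a difference of 1.06 ± 0.27. Junb, a subunit of AP-1, was at 71.5, 115 and 116 CPM against 54.9, 66.9 and 48.9 CPM (0.83 ± 0.23), and shares exon sequence with Prdx2. Zfp36, which promotes decay of cytokine mRNAs, was at 0.78 ± 0.22 and Ier5 at 0.93 ± 0.29, both without overlap. The lists of MAPK output, p53 targets, beta-catenin targets and Schwann cell genes also had levels that did not overlap, so 5 of 45 lists were separated as higher, 1 as lower, and 39 overlapped. Such a level can separate with small differences: the medians of these 4 lists were 0.21, 0.20, 0.30 and 0.32. The p53 target median was 0.07 without anti-B7-H3 replicate 3, and the beta-catenin target median was 0.19 without anti-PD1 replicate 2 and 0.09 without both of the muscle-rich libraries.

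Within those lists, several of the members with the smallest p restrain their own pathway. The MAPK phosphatase gene Dusp4 was at 15.1, 19.1 and 27.4 CPM with anti-B7-H3 and at 7.47, 5.84 and 10.7 CPM with anti-PD1, a difference of 1.36 ± 0.31 without overlap. Dusp5 and Spry4, which also restrain MAPK signalling, were at 0.83 ± 0.23 and 0.63 ± 0.20. Among beta-catenin targets, Notum, an enzyme that inactivates Wnt proteins, was at 8.86, 18.4 and 30.1 CPM against 5.90, 3.09 and 7.92 CPM, a difference of 1.77 ± 0.50. It shares exon sequence with its antisense gene Notumos. Nkd1, which restrains Dishevelled, was at 1.77 ± 0.55, the secreted Wnt modulator Sfrp2 at 0.79 ± 0.28 and the transcription factor Tcf7 at 0.52 ± 0.21, while Ctnnb1, beta-catenin itself, was at -0.19 ± 0.18. Among p53 targets the cell cycle inhibitor Cdkn1a was at 77.5, 59.0 and 75.9 CPM against 42.5, 30.7 and 50.9 CPM (0.77 ± 0.22), and the apoptosis gene Pmaip1 was at 1.45 ± 0.45. Sesn1, a stress-induced restraint on the growth kinase mTORC1, pointed the other way at 28.4, 18.5 and 22.8 CPM against 32.4, 49.7 and 28.8 CPM, without overlap (-0.68 ± 0.25).

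**Figure D5:**
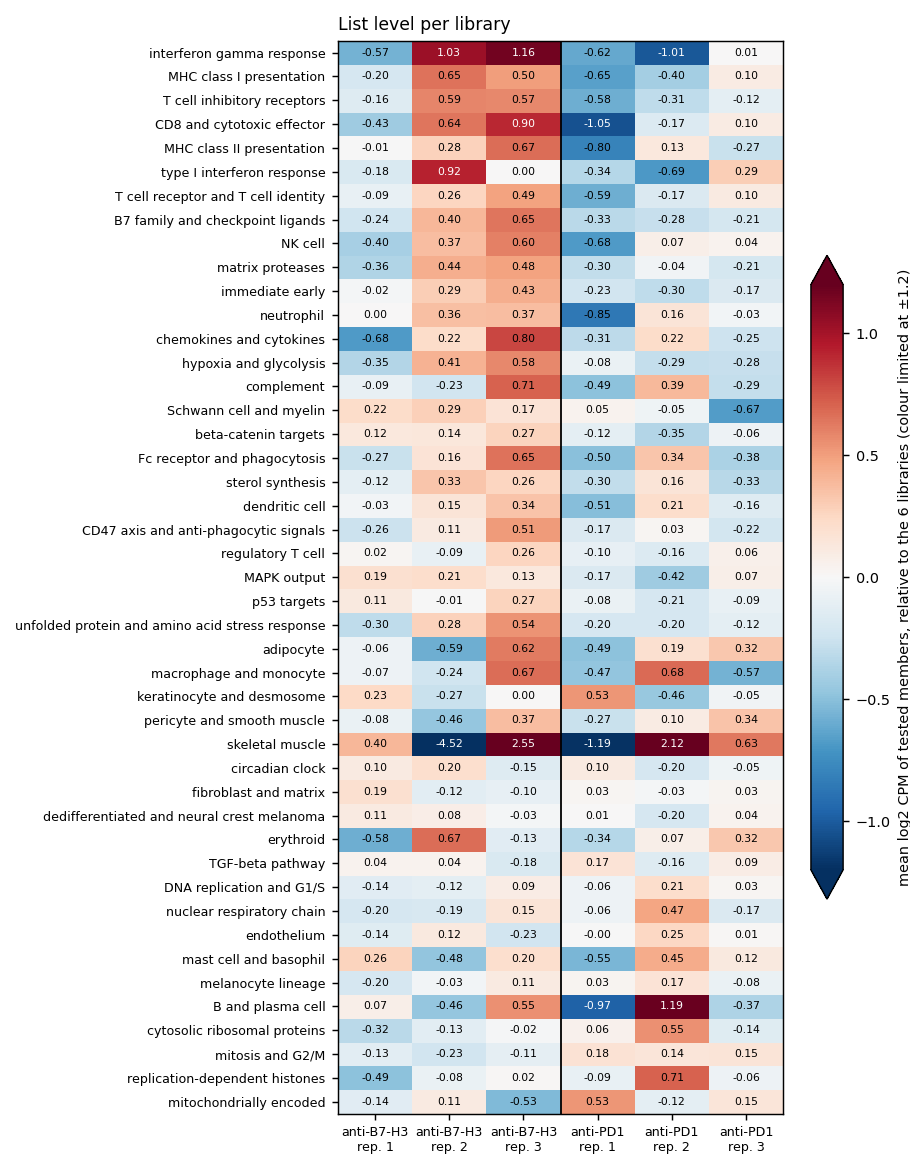
Mean log2 CPM of the tested members of each of 45 lists in each library, relative to the mean of the 6 libraries, in colour and as numbers (colour is limited at the scale's ends). Interferon gamma response reads -0.57 in anti-B7-H3 replicate 1 beside 1.03 and 1.16 in replicates 2 and 3, whereas mitosis is negative in all 3 anti-B7-H3 libraries and positive in all 3 anti-PD1 libraries.

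Hypoxia and glycolysis genes were above 0 in 23 of 24 with a median of 0.36, which was 0.23 without anti-B7-H3 replicate 3 and 0.19 both with the receptor covariate and without the muscle-rich libraries. Slc2a1, the glucose transporter GLUT1, was at 75.1, 161 and 193 CPM against 86.1, 44.2 and 72.2 CPM (1.09 ± 0.38), and the hexokinase gene Hk2 was at 0.85 ± 0.30; in both, anti-B7-H3 replicate 1 lay within the anti-PD1 range. The oxygen sensor Egln3 (0.82 ± 0.25) and Ankrd37 (1.33 ± 0.37) did not overlap. Sterol synthesis genes were above 0 in 18 of 20 with a median of 0.29, which was 0.11 with the receptor covariate. Srebf2, a transcription factor of sterol synthesis, was at 208, 229 and 202 CPM against 147, 126 and 173 CPM, a difference of 0.52 ± 0.17 without overlap. Of 18 unfolded protein and amino acid stress genes, 13 were above 0 with a median of 0.19, which was 0.02 without anti-B7-H3 replicate 3 and 0.37 without anti-B7-H3 replicate 1. The transcription factor Atf4 was at 274, 399 and 427 CPM against 217, 260 and 236 CPM (0.62 ± 0.21), and its target Trib3 at 1.50 ± 0.54.

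Stromal genes went in both directions. Fstl1, a secreted glycoprotein of fibroblasts, was at 421, 357 and 367 CPM with anti-B7-H3 and at 572, 679 and 561 CPM with anti-PD1, a difference of -0.66 ± 0.18. Fap, the fibroblast activation protease, was at 11.9, 12.9 and 12.5 CPM against 27.1, 40.8 and 14.5 CPM (-1.14 ± 0.34), and the matrix protein Postn was at -0.77 ± 0.26. None of the 3 overlapped. Col1a1, a chain of type I collagen, pointed the other way, at 3077, 1636 and 2596 CPM against 1062, 818 and 1637 CPM. Its groups overlapped by 1 pair of libraries, with a difference of 1.06 ± 0.34. The fibroblast list as a whole had 13 of 24 genes above 0 and a median of 0.07, which turned to -0.07 without anti-PD1 replicate 2, to -0.04 without anti-B7-H3 replicate 1 and to -0.05 with quality weights, so no direction is given for it. Mmp13, a collagenase, was at 2.63, 21.9 and 34.8 CPM against 2.95, 4.70 and 3.70 CPM (2.38 ± 0.79), so its difference rests on anti-B7-H3 replicates 2 and 3. The growth factor genes Tgfb3 and Tgfb2 were at -0.54 ± 0.17 and -1.16 ± 0.38 without overlap. Endothelial genes were above 0 in 7 of 22 (median -0.20, and -0.05 without anti-B7-H3 replicate 3), with the transcription factor Erg at -0.96 ± 0.41 and the VEGF receptor Kdr at -0.35 ± 0.17.

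Skeletal muscle genes had the widest spread within groups, at list levels of 0.40, -4.52 and 2.55 in the anti-B7-H3 libraries against -1.19, 2.12 and 0.63 in the anti-PD1 libraries. Acta1, the skeletal muscle actin, had 1383, 4 and 15249 reads against 180, 7387 and 2670. The list's median of 0.10 turned to -3.35 in limma-voom with quality weights and to 1.30 without anti-PD1 replicate 2, and no direction is given for it. Leaving out both of the muscle-rich libraries kept the mitosis, interferon gamma, cytotoxic and checkpoint ligand medians on the same side of 0, although that of the interferon gamma response fell from 1.15 to 0.61. The muscle level as a covariate also left these 4 medians on their side of 0. In those 2 fits 0 genes passed in either direction.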

How the data were processed

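The authors deposited, per the file headers, 1 table a library with the estimated count of each transcript, not normalized, beside TPM and effective lengths. TPM and effective lengths were not tested. No source used here names the quantifier; the submitters' processing notes name FastQC 0.11.8 and GRCm38. Of 58083 listed transcripts, 57473 matched GENCODE M21 by identifier, and the other 610 held 0.188 to 0.344% of reads in the 6 libraries. Listed lengths equal the coding sequence for 92.5% of matched coding transcripts, so they are coding lengths. Estimated counts were summed over 22195 genes and rounded. The 12 major satellite genes were removed before filtering and scaling.

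The 3 anti-B7-H3 and 3 anti-PD1 libraries were fitted alone in R 4.3.3 with edgeR 4.0.16 (TMM, filterByExpr, robust quasi-likelihood F test, group as the only term; Benjamini-Hochberg threshold 0.05, no minimum fold). The filter kept 12593 genes and set aside 7988 with reads. The test was checked on simulated counts drawn with the fitted trend of spread alone. It found 29% of 100 genes changed 2-fold and 95% of 100 changed 4-fold, and 6.06% of its calls were false. Levels are TMM-scaled CPM; differences are log2, anti-B7-H3 minus anti-PD1, with the SE from the fit. IgG levels come from TMM scaling of all 9 libraries. Because TMM centres on the typical gene, differences are relative to it. Wilson 95% intervals of satellite shares, which cover counting error only, were at most 0.0649 percentage points wide. Chi-square values per degree of freedom between libraries of 1 group ran from 12.5 to 68.6, so no library is a copy of another.

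Named genes are the 10 per direction with the smallest p and a mean of at least 1 log2 CPM, since fewer than 5 genes passed, 18 antibody targets, title genes and subset markers, and, per list of 45, as many as 4 members by smallest p, of which those needed are printed. Exons of Klhl21, Adam15, Prss23, Cenpk, Lrrc17, Nectin2, Ankrd37, Slc2a1, Zfp36, Cdkn1a, Dusp5, Sfrp2, Tgfb2, Tgfb3, Tap2, Oasl1, Csf1r, Cd3e, Foxp3, Ctnnb1, Lss and Hist1h4b also overlap a gene on the opposite strand. All exon overlaps given were taken over whole exons, and whether they lie in the counted coding sequence was not tested. A few genes picked here are not reported. Motif stretches were chosen after seeing values. The comparison and the lists were chosen with earlier results of these data known. A list is described by the counts and median of its tested members; a member that passed the filter through 1 group can only be high there. Alternatives were DESeq2 1.42.0, limma-voom (limma 3.58.1) with and without quality weights, other scalings and filters, other sets of libraries and genes, covariates, the replicate number as a block, and leaving out each library.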

Additional observations from a re-analysis of the deposited data

How the results depend on the processing

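Over 22 alternatives the count of genes past the threshold stayed 0 in both directions except in 3. DESeq2 was fitted without edgeR's filter on low counts. It called 8 higher (Atg9b, Igsf9b, Nefm, Col5a3, Crmp1, Klhl21, CR974586.6 and Gm15128) and 7 lower (Ptn, Rpl10, Arl5b, Hist4h4, Prss23, Lrrc17 and Gm9833). The edgeR fit without a filter on low counts called 1 higher (Atg9b). Without single libraries the count ran from 0 to 1 higher, the 1 being Ide without anti-B7-H3 replicate 1, and was 0 lower. The cause was not tested. With the replicate number as a block, 0 genes were higher and 0 lower. At an unadjusted p under 0.05 there were 484 and 272, against 639 and 470 without the block. Same-numbered libraries deviated with correlations of 0.14, -0.34 and -0.25. Pairs with different numbers ran from -0.43 to 0.52, the highest being the pair of muscle-rich libraries. With 3 libraries per group these values depend on one another, so they cannot show whether a shared number means a shared batch. That was not tested. Leaving out 1 library gave 299 to 806 higher and 226 to 588 lower at an unadjusted p under 0.05. No scaling moved the median of all genes by over 0.1. All 20 genes with the smallest p, which were picked from these same libraries, kept their sign in every alternative run. Among the other named genes, some differences near 0 changed sign. Cd47 (0.02) was -0.0737 with quality weights, -0.16 without both muscle-rich libraries, -0.0365 with the receptor covariate, and -0.13 to 0.10 without single libraries. Sirpa (0.03) was -0.15 and Adgre1 (0.15) -0.24 with the receptor covariate, and leaving out 1 library gave -0.21 to 0.30 and -0.28 to 0.81. Foxp3 (0.16) was -0.53 in limma-voom, -0.86 with quality weights, -0.26 with the replicate block, and -1.23 to 0.63 without single libraries. Csf1r (-0.03) was 0.0562 in limma-voom, 0.16 with quality weights, 0.0589 with the replicate block, 0.26 without both muscle-rich libraries, 0.0627 with the muscle covariate, and -0.25 to 0.44 without single libraries. Ncr1 (-0.16) and Flt3 (0.09) lay between -0.51 and 0.0836 and between -0.21 and 0.62 when 1 library was left out. With the receptor covariate Mmp9 (0.24) was -0.00489 and Ighm (0.20) -0.13, and Igkc (-0.61) was 0.0266 without both muscle-rich libraries; without single libraries Ighm ran from -0.22 to 1.45 and Igkc from -1.24 to 0.65. Quality weights in limma-voom gave 1031 higher and 906 lower at an unadjusted p under 0.05. The receptor covariate turned the medians of 8 lists: chemokines and cytokines (0.38 to -0.27), NK cell (0.46 to -0.04), macrophage and monocyte (0.15 to -0.15), CD47 axis and anti-phagocytic signals (0.27 to -0.09), TGF-beta pathway (-0.06 to 0.02), pericyte and smooth muscle (0.12 to -0.04), skeletal muscle (0.10 to -0.48) and erythroid (0.04 to -0.39). Leaving out single libraries turned from 1 list, without anti-B7-H3 replicate 2, to 6, without anti-B7-H3 replicate 3.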

Other observations

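A few genes were listed at 0 reads in some libraries and well counted in others. Of 8765 genes with at least 200 reads in 1 of the 6 libraries, 21 had 0 reads in another, 6 of them in the skeletal muscle list. Ide, the insulin-degrading enzyme, had 0, 759 and 1204 reads in anti-B7-H3 replicates 1 to 3 and 0 in all 3 anti-PD1 libraries, and it did not pass the filter on low counts in the comparison of 6 libraries. Sept2, a septin of cytokinesis, had 0, 267 and 545 reads against 525, 1101 and 544 in the same order. Baz2a, a chromatin remodelling subunit, had 405, 664 and 587 reads against 213, 0 and 576. Gla, the lysosomal alpha-galactosidase, had 209 reads in anti-B7-H3 replicate 2, 86 in replicate 1 of the anti-PD1 group and 0 in the remaining 4 libraries. These genes were chosen after their values were seen, and counts estimated per transcript can put a gene's reads on another record.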
